A study of Mus musculus with 9 samples.

Results

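The expression of 10 genes of the muscle Z-disc was followed through the differentiation of C2C12 cells, a mouse myoblast line whose cells leave the cell cycle and fuse into multinucleated myotubes in medium poor in growth factors. The members were chosen by symbol, with earlier results of these data known: the α-actinins Actn2 and Actn3, the calsarcins Myoz1 and Myoz2, the PDZ-LIM proteins Ldb3, Pdlim3 and Pdlim5, the small muscle protein Smpx, and the Xin repeat proteins Xirp1 and Xirp2. All 10 were found by identifier among the 47728 genes of each count table, and all 10 passed the filter on low counts, which left 12844 genes in the test.

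The study compared 3 kinds of C2C12 culture: cells with a knockdown of Fkbp4, cells with a knockdown of Fkbp5, and a control that the sample titles call Neg. Each was collected at days 0, 3 and 5, with 1 library per genotype and day, 9 libraries in all. All cultures grew in serum first and were switched at day 0 to medium with insulin, transferrin and selenium. The protocol also speaks of later changes to a medium with HS, which it does not spell out. The knockdown method, and whether the cultures came from 1 clone or a pool of cells, are not given in the sources used here. Fkbp4 and Fkbp5 encode FKBP52 and FKBP51, immunophilins that act as co-chaperones of Hsp90.

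The Z-disc is the plate at the edge of each sarcomere, in which α-actinin crosslinks the actin filaments of neighbouring sarcomeres. PDZ-LIM proteins and calsarcins sit on α-actinin and bring other proteins to it, among them the phosphatase calcineurin, which calsarcins hold at the Z-disc. Xin repeat proteins bind actin and mark adherens junctions of the heart, the myotendinous junction and damaged or remodelling sarcomeres. In cultured myoblasts many genes of the Z-disc rise as the first myofibrils are built.

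Library totals ran from 3932372 to 5568486 reads on genes, a 1.42-fold range. The targeted gene was low where the labels say so. Fkbp4 stood at 60.1, 27.1 and 24.0 normalised CPM (read counts scaled to a common library size, CPM) at days 0, 3 and 5 in its own knockdown and at 240, 143 and 138 in the control. Fkbp5 stood at 4.46, 3.18 and 4.60 CPM in its own knockdown and at 20.1, 7.34 and 14.7 in the control. All 6 skeletal muscle markers (Myod1, Myog, Des, Ckm, Acta1, Tnnt3) rose from day 0 to day 3. Of the 5 adipocyte markers 4 had no read in any library, osteoblast and chondrocyte markers summed to at most 0.442 CPM, and immune and endothelial markers to at most 4.64 CPM. Smooth muscle markers summed to between 699 and 2710 CPM, mostly from Acta2, which young skeletal myotubes also make. Mitochondrially encoded genes took 10.06% of the reads of the Fkbp5 knockdown at day 5 and between 1.78% and 5.01% elsewhere.

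Sequence upstream of the start site was held for 7 of the 10 members, in 9 windows of 250 bases from RefSeq, build GRCm38.p6. The windows were searched on both strands for 4 short words tied to muscle genes. These were the E-box CANNTG, the MCAT word CATTCC, the MEF2 word and the CArG box. CANNTG takes in every E-box, not only the forms bound by MyoD and myogenin. The E-box was in 5 of these 9 windows, beside 66.2% of all 32851 windows searched in the same way. The MEF2 word was in 2 of 9 beside 0.508% of all windows, and the MCAT word in 1 of 9 beside 12.6%. The CArG box was in 2 of 9 beside 1.47%, both of them overlapping windows of Ldb3 that hold the same box. Of the 5 windows with one of the 3 rarer words, 1 is shown for each gene, each 5′ to 3′ along the gene's own strand and ending at the base before the RefSeq start. Capitals mark every match.
Myoz2 (chr3:123034988-123035237, minus strand): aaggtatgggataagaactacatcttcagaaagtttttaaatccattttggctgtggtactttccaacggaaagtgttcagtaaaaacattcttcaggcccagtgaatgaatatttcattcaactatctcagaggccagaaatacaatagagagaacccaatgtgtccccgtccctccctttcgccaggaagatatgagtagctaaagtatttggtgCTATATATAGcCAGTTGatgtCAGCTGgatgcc
Xirp2 (chr2:67445752-67446001, plus strand): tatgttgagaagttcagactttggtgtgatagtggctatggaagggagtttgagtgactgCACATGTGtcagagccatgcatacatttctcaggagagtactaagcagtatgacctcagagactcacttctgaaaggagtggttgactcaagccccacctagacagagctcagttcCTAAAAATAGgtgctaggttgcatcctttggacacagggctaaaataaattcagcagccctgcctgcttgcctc
Ldb3 (chr14:34588682-34588931, minus strand): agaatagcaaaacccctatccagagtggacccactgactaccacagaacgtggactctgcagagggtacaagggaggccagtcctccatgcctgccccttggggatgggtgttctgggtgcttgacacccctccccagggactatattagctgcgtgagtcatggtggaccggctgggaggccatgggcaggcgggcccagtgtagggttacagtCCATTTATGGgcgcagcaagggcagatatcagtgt
Pdlim3 (chr8:45885237-45885486, plus strand): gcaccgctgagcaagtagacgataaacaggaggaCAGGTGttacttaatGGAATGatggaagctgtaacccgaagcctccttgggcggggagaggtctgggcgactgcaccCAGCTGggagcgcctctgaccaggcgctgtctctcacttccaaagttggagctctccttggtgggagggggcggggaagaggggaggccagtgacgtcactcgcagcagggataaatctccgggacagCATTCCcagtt
In the Myoz2 window the MEF2 word lies 33 to 24 bases before the start, followed by E-boxes from 22 to 17 and from 12 to 7. In Xirp2 the MEF2 word lies 74 to 65 bases before the start, and its pair of E-boxes overlap each other. Ldb3 holds its CArG box 35 to 26 bases before the start of the window shown, which is 109 to 100 bases before its other RefSeq start. Pdlim3 holds an MCAT word at 201 to 196 and a second at 11 to 6. A match is a description of the letters and no evidence of a bound factor.

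The first comparison asked how the members moved as the cells differentiated. All 10 members were called higher at day 3 than at day 0 (edgeR, adjusted p under 0.05), where 26.4% of all genes tested were called higher. Their median log2 fold change was 2.56, beside 7e-04 over all genes. Xirp1 (2.60, SE 0.21), Pdlim3 (2.58, SE 0.25), Ldb3 (2.54, SE 0.20) and Xirp2 (2.47, SE 0.47) lay close to that median. Actn2, Myoz1, Myoz2 and Smpx held at most 12 reads in any day 0 library. Actn2, Myoz2 and Smpx passed the filter on low counts through days 3 and 5. Myoz1 passed it through the Fkbp4 knockdown and the control of day 5. For these 4 the filter itself thus asked for reads at the later days. Genotypes stood in for replicates here. With 1 library per genotype and day, every p-value rests on how far these libraries depart from the fitted genotype and day terms. That departure may be technical or a difference between genotypes in their course over the days. In RNA from whole cultures, fewer differentiated cells and less RNA per cell cannot be told apart.

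**Figure D1:**
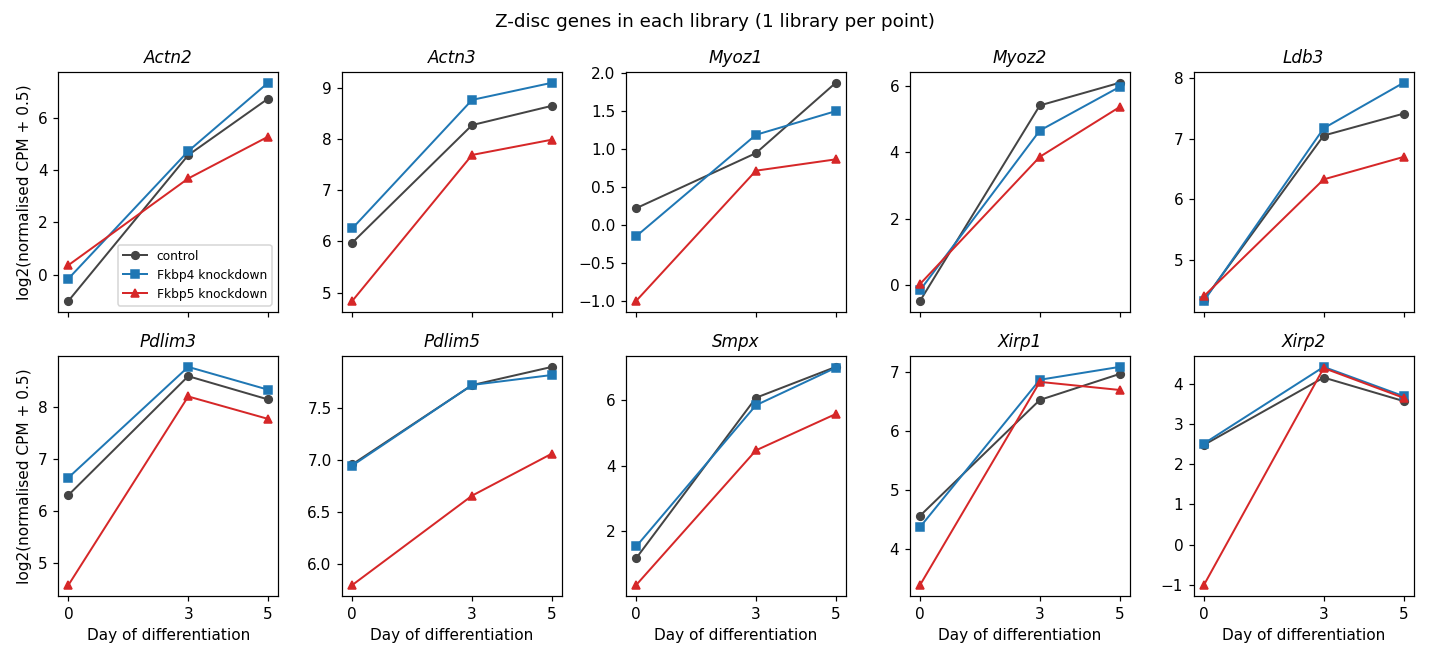
Each panel shows 1 member; the x axis is the day of differentiation, the y axis is log2(normalised CPM + 0.5), and each point is 1 library of the control (circles), the Fkbp4 knockdown (squares) or the Fkbp5 knockdown (triangles). Smpx, Actn3 and Pdlim5 run lowest in the Fkbp5 knockdown at all 3 days, while Xirp2 is low there at day 0 only.

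The α-actinins differed most in when they appeared. Actn2, the isoform of heart and of all skeletal fibres, had 0 reads in the day 0 control, 2 with Fkbp4 knocked down and 3 with Fkbp5 knocked down. At day 3 it stood at 23.2 CPM in the control, 25.8 with Fkbp4 knocked down and 12.3 with Fkbp5 knocked down. At day 5 it stood at 105, 161 and 38.1 CPM in the same order. From day 0 to day 3 the control rose at least 35.0-fold against a floor of 3 reads. The Fkbp4 knockdown rose 64.4-fold from its 2 reads (exact 95% interval 17.5 to 537, counting error only). Actn2 was the member with the largest further rise to day 5, by 2.22 on the log2 scale (SE 0.22, adjusted p = 0.000511 in edgeR), and it was higher at day 5 than at day 3 in all 3 genotypes. DESeq2 gave that rise an adjusted p of 0.0594 and limma voom 0.174.

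Actn3, the α-actinin of fast fibres, was already expressed in the day 0 cultures. It stood at 62.5, 310 and 403 CPM at days 0, 3 and 5 in the control and at 75.9, 436 and 550 CPM in the Fkbp4 knockdown. In the Fkbp5 knockdown it stood at 28.1, 206 and 254 CPM, the lowest of the 3 genotypes at each day. Its day 3 rise was 2.55 on the log2 scale (SE 0.12), and the day 5 step of 0.34 was not called (adjusted p = 0.101). Per kilobase of exon Actn3 was the highest member in all 9 libraries, at 139 CPM per kb in the day 5 control. Actn2 stood at 27.7 and Ldb3 at 27.8 CPM per kb in that library, so these 2 could not be ordered there.

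The calsarcins were represented by Myoz2 almost alone. Myoz2, the form of slow fibres and heart, had 1 or 2 reads in every day 0 library. It stood at 42.1 and 67.9 CPM at days 3 and 5 in the control, at 24.8 and 62.3 with Fkbp4 knocked down, and at 14.1 and 40.7 with Fkbp5 knocked down. The Fkbp5 knockdown was lowest at both days. Its fitted rise by day 3, 6.05 on the log2 scale (SE 0.36), rests on those few day 0 reads, and it rose again by 1.15 to day 5 (SE 0.17, adjusted p = 0.00388). Myoz1, the form of fast fibres, never passed 13 reads, between 0 and 3.14 CPM over the 9 libraries. Its day 3 rise of 1.95 (SE 0.62, adjusted p = 0.0229 in edgeR) was no longer called in DESeq2 (adjusted p = 0.078). The call was also lost without the Fkbp4 knockdown of day 0, the Fkbp4 knockdown of day 3 or the Fkbp5 knockdown of day 3. Without the Fkbp4 knockdown of day 5 or the control of day 5, Myoz1 failed the filter on low counts and was not tested.

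Among the PDZ-LIM proteins, Ldb3 (ZASP or Cypher, which binds α-actinin through its PDZ domain) stood at 19.9, 132 and 170 CPM in the control at days 0, 3 and 5. It stood at 19.6, 144 and 242 CPM in the Fkbp4 knockdown and at 20.7, 80 and 103 CPM in the Fkbp5 knockdown. The 3 genotypes were level at day 0, and the Fkbp5 knockdown was lowest at days 3 and 5. Pdlim3 (ALP) stood at 78.8, 387 and 284 CPM in the control and at 99.6, 438 and 323 CPM in the Fkbp4 knockdown. It stood at 23.4, 295 and 219 CPM in the Fkbp5 knockdown, lowest at every day. Pdlim5 (ENH), which also binds protein kinase C and occurs in many tissues, stood at 124, 210 and 237 CPM in the control and at 123, 210 and 225 in the Fkbp4 knockdown. It stood at 55.2, 100 and 133 CPM in the Fkbp5 knockdown, again lowest at every day. Its day 3 rise, 0.80 (SE 0.10), was the smallest of the 10.

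Smpx (also called Csl or chisel), a small protein of the costameres and the sarcomere, stood at 1.77, 66.5 and 128 CPM in the control and at 2.40, 56.8 and 126 in the Fkbp4 knockdown. In the Fkbp5 knockdown it stood at 0.788, 21.6 and 47.1 CPM. At days 3 and 5 the control and the Fkbp4 knockdown lay close together, with the Fkbp5 knockdown under both. Day 0 held at most 12 reads in a library, too few to order the genotypes. Smpx rose by 4.83 to day 3 (SE 0.17) and by 1.07 to day 5 (SE 0.10, adjusted p = 0.000464).

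Of the Xin repeat genes, Xirp2 stood at a lower CPM per kb of exon than Xirp1 in every library. Xirp1 stood at 23.2, 92.1 and 125 CPM in the control, at 20.2, 117 and 136 in the Fkbp4 knockdown and at 9.98, 114 and 104 in the Fkbp5 knockdown. Xirp2 stood at 5.08, 17.3 and 11.4 CPM in the control, at 5.21, 20.9 and 12.4 with Fkbp4 knocked down and at 0, 20.4 and 12.0 in the Fkbp5 knockdown. For both genes the Fkbp5 knockdown was lowest at day 0 and lay above the control at day 3. In every genotype Xirp2 and Pdlim3 were lower at day 5 than at day 3, by 0.71 (SE 0.40) and 0.44 (SE 0.23) on the log2 scale in the fit. Neither decline was called (adjusted p = 0.332 for Xirp2 and 0.291 for Pdlim3). Both passed without the filter on low counts (0.00664 and 0.0034) or without the Fkbp5 knockdown of day 0 (0.0234 and 0.0156). Without the filter 1578 of 23919 genes were called in either direction, against 791 of 12844 with it.

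From day 3 to day 5, 3 of the 10 members were called higher (Actn2, Myoz2 and Smpx), where 3.77% of all genes tested were called higher. DESeq2 called 2 of the 10 and limma voom called 0. In edgeR 6 members had an unadjusted p under 0.05, where 2821 of all 12844 genes tested had one. Ldb3 (0.51, adjusted p = 0.103), Pdlim5 (0.22, 0.216), Myoz1 (0.60, 0.469) and Xirp1 (0.16, 0.634) were not called. Without the Fkbp5 knockdown of day 0, 6 members were called, the same 3 and Ldb3 higher (adjusted p = 0.0222) and Pdlim3 and Xirp2 lower.

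**Figure D2:**
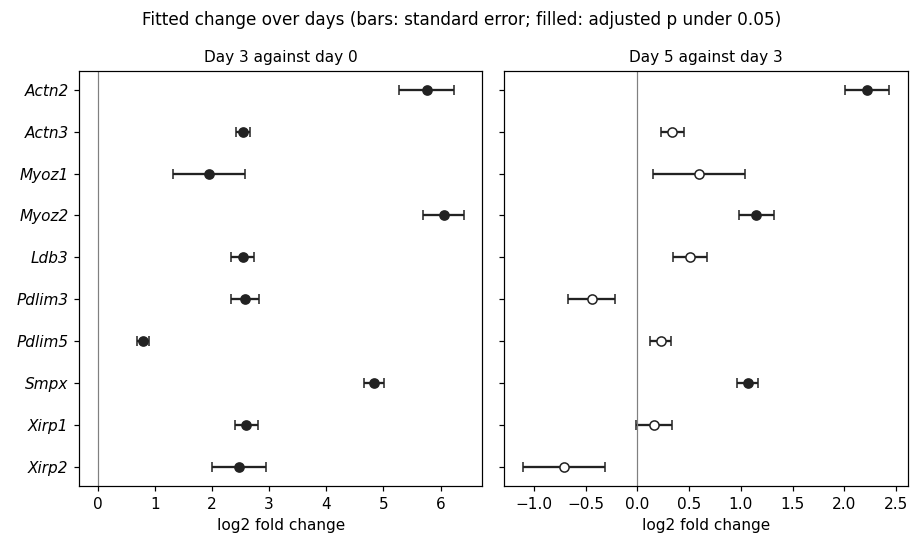
The x axis is the fitted log2 fold change between days, with its own range in each panel, and the y axis lists the members; bars are standard errors and filled points have an adjusted p under 0.05. All 10 points are filled and above 0 for day 3 against day 0, and Actn2, Myoz2 and Smpx are filled for day 5 against day 3.

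The second comparison asked how the Fkbp5 knockdown differed from the control. For genotype differences fitted over the 3 days, here and below, the days stood in for replicates of a genotype. No genotype was repeated within a day. Whether a difference came from the knockdown or from the separate cultures of that genotype was not tested. Smpx, Pdlim5, Myoz2 and Actn3 were called lower than in the control over the 3 days, 4 of the 10 members where 1.4% of all genes tested were called lower. All 10 members had a fitted log2 fold change under 0, with a median of -0.89 beside 0.0041 over all genes. Smpx had the largest difference, lower by 2.84-fold (log2 -1.51, SE 0.13, adjusted p = 0.000404). The Fkbp5 knockdown was lower at days 3 and 5, and day 0 held too few reads to tell (3 against 8). Pdlim5 was lower by 2.02-fold (log2 -1.01, SE 0.10, adjusted p = 0.00159) at 3 of 3 days. These 2 calls held in all 18 alternatives run for each of them. The alternatives were 2 other tools, no scaling beyond library totals, no filter on low counts, nuclear genes only, only the 6 libraries compared, and the fits without each library and each day.

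Myoz2 was lower by 2.11-fold (log2 -1.08, SE 0.21, adjusted p = 0.0294). That call was lost in 7 of 18 alternatives, among them without the control of day 3 (adjusted p = 0.178), without the Fkbp5 knockdown of day 3 (0.104) and without the Fkbp5 knockdown of day 5 (0.125). Actn3 was lower by 1.70-fold (log2 -0.77, SE 0.12, adjusted p = 0.0108). It lost its call in 5 of 18, among them without the Fkbp5 knockdown of day 5 (0.0632) and without the control of day 5 (0.0531). Actn2 had a log2 fold change of -1.20 (SE 0.27) and just missed the threshold (adjusted p = 0.0527). It passed in 8 of 18 alternatives, with limma voom (0.0247) and with nuclear genes only (0.047) among them. DESeq2 gave -0.43 (adjusted p = 0.99), and without the Fkbp5 knockdown of day 5 the value was -0.64 (0.53). Its values in the Fkbp5 knockdown were 12.3 and 38.1 CPM at days 3 and 5 against 23.2 and 105 in the control. Ldb3 (-0.54, adjusted p = 0.181) and Pdlim3 (-0.70, 0.18) were not called. Xirp1 (-0.22, 0.64), Xirp2 (-0.23, 0.861) and Myoz1 (-1.07, 0.366) were not called either.

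The number of members called was 4 in DESeq2, 5 in limma voom and 5 with nuclear genes only. It was 7 without the filter on low counts, 2 without the Fkbp5 knockdown of day 5 and 6 without the Fkbp5 knockdown of day 0. Without the filter 866 of 23919 genes were called in either direction, against 268 of 12844 with it. Some general markers of muscle differentiation were also lower in the Fkbp5 knockdown. Ckm, muscle creatine kinase, was lower by 1.10 on the log2 scale (adjusted p = 0.00458) and Tnnt3, fast troponin T, by 0.84 (0.0391). Myog (-0.63, 0.252), Acta1 (-0.56, 0.276), Myod1 (-0.07, 0.78) and Des (0.08, 0.804) were not called. What part the progress of differentiation had in the members' values was not tested.

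**Figure D3:**
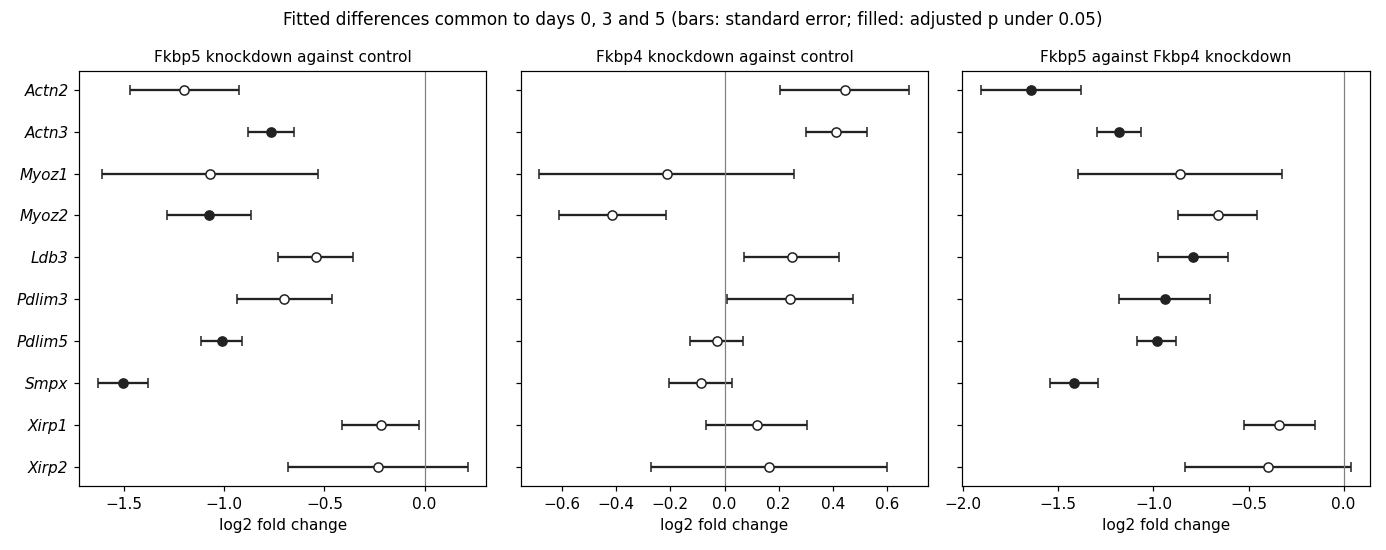
The x axis is the fitted log2 fold change common to days 0, 3 and 5, with its own range in each panel, and the y axis lists the members; bars are standard errors and filled points have an adjusted p under 0.05. In the left panel all 10 points lie under 0 and Actn3, Myoz2, Pdlim5 and Smpx are filled, in the middle panel no point is filled, and in the right panel 6 are.

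Compared day by day, as a description ordered after the values were seen, the single libraries showed the widest gap to the control at different days for different members. Pdlim5 and Actn3 were lower in the Fkbp5 knockdown at every day, and Smpx was lower at days 3 and 5. Smpx had 3 reads against 8 at day 0, too few to tell (log2 ratio -1.16, exact 95% interval -3.71 to 0.89, which like all these intervals covers counting error only). It was lower by 3.08-fold at day 3 (log2 -1.62, -1.98 to -1.28) and by 2.72-fold at day 5 (log2 -1.44, -1.68 to -1.21). Pdlim5 was lower by 2.25-fold, 2.09-fold and 1.79-fold at days 0, 3 and 5. Actn3 was lower by 2.22-fold, 1.5-fold and 1.58-fold.

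Pdlim3 was also lower at every day, with the widest gap at day 0, by 3.37-fold (log2 -1.75, -2.11 to -1.41). It was lower by 1.31-fold at day 3 (log2 -0.39, -0.50 to -0.29) and by 1.3-fold at day 5 (log2 -0.38, -0.50 to -0.25). The Xin repeat genes had their widest gap at day 0. Xirp1 was lower by 2.32-fold at day 0 (log2 -1.22, -1.79 to -0.67), higher by 1.24-fold at day 3 and lower by 1.21-fold at day 5. Xirp2 had 0 reads against 23 in the control, at least 6.44-fold lower against a floor of 3 reads. It was within counting error of the control at days 3 and 5 (log2 0.24, -0.22 to 0.71, and 0.08, -0.50 to 0.68). Without day 0 the fitted difference of Xirp1 was 0.02 and that of Xirp2 0.17.

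Ldb3 was level with the control at day 0 (log2 0.06, -0.39 to 0.51) and was lower afterwards. It was lower by 1.65-fold at day 3 (log2 -0.72, -0.92 to -0.53) and by 1.64-fold at day 5 (log2 -0.72, -0.89 to -0.54). Actn2 could be compared only from day 3, since no day 0 library held more than 3 reads. It was lower by 1.89-fold at day 3 (log2 -0.92, -1.43 to -0.43) and by 2.76-fold at day 5 (log2 -1.46, -1.73 to -1.21). Myoz2 was lower by 2.99-fold at day 3 and by 1.67-fold at day 5. A difference in Myoz1 was not detectable at this depth on any day.

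Counting only members with at least 20 reads in the larger library of a pair, 5 of 6 were at least 2-fold lower in the Fkbp5 knockdown at day 0, where 1.54% of all genes were. At day 3 it was 3 of 9, where 1.94% of all genes were, and at day 5 it was 2 of 9, where 2.01% were. A change of the knockdown difference between day 0 and the later days was tested by an interaction term in a fit that left 2 degrees of freedom. No member was called in edgeR or limma voom, where 0.0374% of all genes were called in edgeR. In edgeR 6 members had an unadjusted p under 0.05, where 604 of all 13372 genes tested had one. The interaction was 1.37 on the log2 scale for Pdlim3 (SE 0.22, adjusted p = 0.218), 1.23 for Xirp1 (SE 0.35, 0.962) and -0.79 for Ldb3 (SE 0.29, 0.962). For Actn3 it was 0.52 (adjusted p = 0.962), for Pdlim5 0.22 (0.962) and for Smpx -0.39 (0.993). Xirp2, with its 0 reads at day 0, had an adjusted p of 0.197, and Actn2, Myoz1 and Myoz2, with at most 3 reads there, had 0.962. Without the filter on low counts Pdlim3 (adjusted p = 0.000222), Xirp1 (0.0267) and Xirp2 (2.67e-05) passed. That setting called 107 of 23919 genes for this interaction, against 5 of 13372 with the filter.

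**Figure D4:**
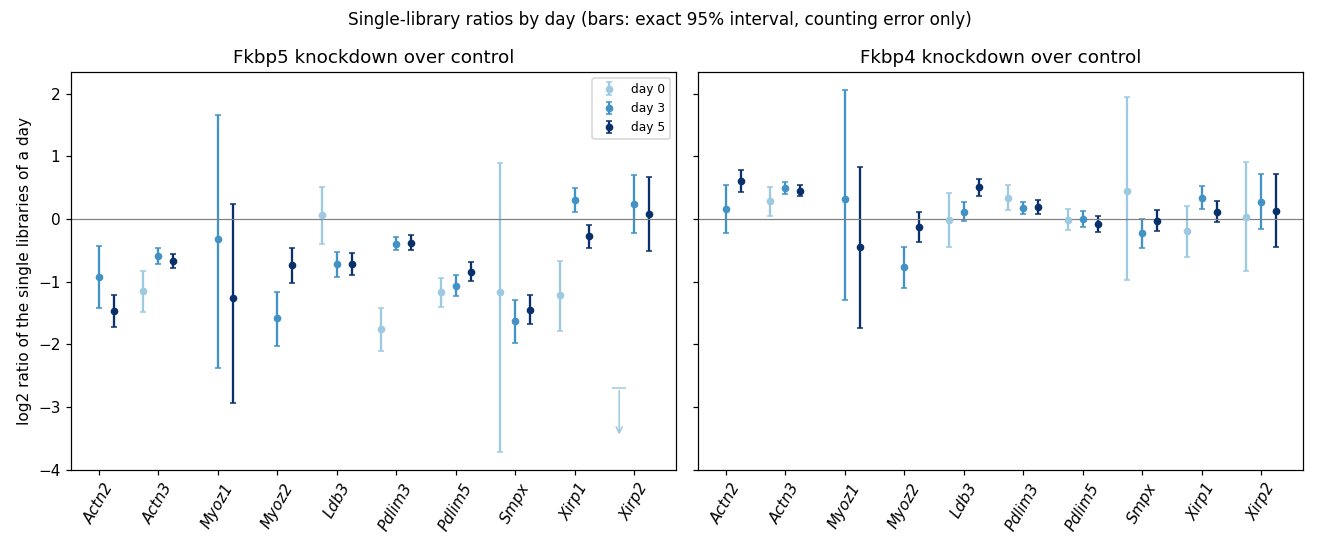
The y axis is the log2 ratio of the knockdown library over the control library of the same day and the x axis lists the members, with light, medium and dark points for days 0, 3 and 5; bars are exact 95% intervals for counting error, the arrow is the bound for Xirp2, and pairs with at most 3 reads in both libraries are left out. In the left panel Pdlim3, Xirp1 and Xirp2 lie lowest at day 0, while Smpx and Pdlim5 stay low at days 3 and 5.

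The third comparison asked the same of the Fkbp4 knockdown. No member was called in edgeR, where 0.265% of all genes tested were called higher and 0.825% lower. One member, Actn3, had an unadjusted p under 0.05, where 2103 of all 12844 genes tested had one. DESeq2 called 1 of the 10, Actn3, and limma voom called 0. Of the fitted differences 6 were above 0 and 4 under 0, with a median of 0.14. Actn3 was higher than in the control at 3 of 3 days, with a log2 fold change of 0.41 (SE 0.11, adjusted p = 0.117 in edgeR and 0.0407 in DESeq2). In the 6 libraries of the Fkbp4 knockdown and the control alone its adjusted p was 0.0479. Actn2 stood at 161 against 105 CPM at day 5, 1.53-fold higher (log2 0.61, 0.44 to 0.78, counting error only), with a fitted difference of 0.44 (SE 0.24, adjusted p = 0.397). Ldb3 stood at 242 against 170 CPM at day 5 (fitted 0.25, SE 0.18, adjusted p = 0.52). Myoz2 went the other way at day 3, at 24.8 against 42.1 CPM, and had a fitted difference of -0.41 (SE 0.20, adjusted p = 0.331). Pdlim5 (-0.03, SE 0.10) and Smpx (-0.09, SE 0.12) had the fitted values nearest to 0. Pdlim3 (0.24, adjusted p = 0.651), Xirp1 (0.12, 0.797), Xirp2 (0.16, 0.888) and Myoz1 (-0.21, 0.861) were not called either. No member was called for an interaction with day in edgeR or limma voom, where 0.0374% of all genes were called in edgeR. In edgeR none of the 10 had an unadjusted p under 0.05, where 396 of all 13372 genes tested had one.

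Set against each other, the knockdowns differed in 6 of the 10 members, all lower with Fkbp5 knocked down, where 6.02% of all genes tested were called lower. This contrast uses the same Fkbp5 and Fkbp4 knockdown libraries as the 2 comparisons with the control, so it is not independent of them. Of all genes called, 53.2% were higher in the Fkbp5 knockdown, and with library totals as the only scaling 37.9% were. Actn2 was lower by 3.12-fold (log2 -1.64, SE 0.26, adjusted p = 0.00418), Smpx by 2.67-fold (-1.42, SE 0.13, 0.000284) and Actn3 by 2.26-fold (-1.18, SE 0.12, 0.000592). Pdlim5 was lower by 1.98-fold (-0.98, SE 0.10, 0.000669), Pdlim3 by 1.92-fold (-0.94, SE 0.24, 0.0282) and Ldb3 by 1.73-fold (-0.79, SE 0.18, 0.0202). Actn3, Pdlim5 and Smpx kept this call in 18 of 18 alternatives. The call of Actn2 was lost in DESeq2 (log2 -1.0028, adjusted p = 0.549) and without the Fkbp4 knockdown of day 5 (0.0851) or the Fkbp5 knockdown of day 5 (0.111). Those of Ldb3 and Pdlim3 were lost in 6 of 18 alternatives each, and without either knockdown library of day 5 only 3 members were called. Myoz2 just missed the threshold (-0.66, adjusted p = 0.0608) and passed in 6 of 18 alternatives. Myoz1 (-0.86, 0.317), Xirp1 (-0.34, 0.262) and Xirp2 (-0.40, 0.591) were not called.

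Related genes were then set against each other within each library, where depth cancels. Of the reads on the 2 muscle α-actinins, Actn2 took 0% in the day 0 control (0 of 283 reads; exact 95% upper bound 1.3%), 6.97% at day 3 and 20.7% at day 5 (19.0% to 22.5%). In the Fkbp4 knockdown it took 5.59% at day 3 and 22.6% at day 5 (21.2% to 24.0%). In the Fkbp5 knockdown it took 5.61% at day 3 and 13% at day 5 (11.3% to 15.0%). The day 5 interval of the Fkbp5 knockdown overlapped neither of the others, and the day 3 intervals of the 3 genotypes overlapped. Each of these rests on 1 library and was not tested against the spread between cultures.

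Myoz2 took between 92.5% and 96.9% of the calsarcin reads at days 3 and 5, with overlapping intervals in all 6 libraries. Of the Xin repeat reads, Xirp2 took 18%, 15.8% and 8.32% in the control at days 0, 3 and 5, and 20.5%, 15.1% and 8.36% in the Fkbp4 knockdown. In the Fkbp5 knockdown it took 0% of 38 reads at day 0 (upper bound 9.25%), 15.2% at day 3 and 10.4% at day 5. The gap at day 0 was thus also a gap to Xirp1 of the same library.

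**Figure D5:**
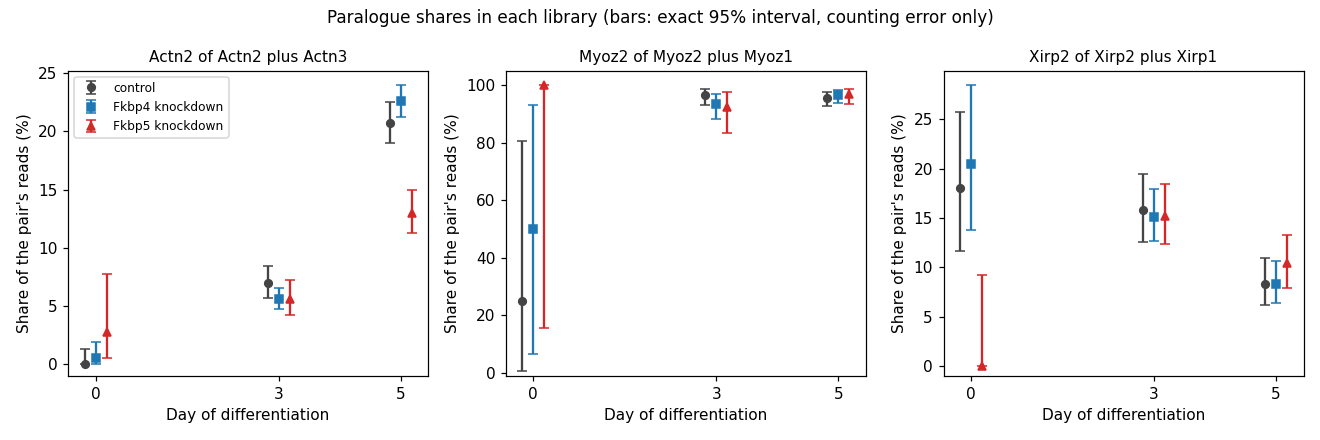
The y axis is the share (%) that the first-named gene takes of the reads of both genes, from 1 library per point, and the x axis is the day; circles are the control, squares the Fkbp4 knockdown and triangles the Fkbp5 knockdown, with exact 95% intervals for counting error. Actn2 reaches 20.7% and 22.6% of the α-actinin reads at day 5 in the control and the Fkbp4 knockdown, against 13% with Fkbp5 knocked down.

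How alike the members were over the 9 libraries is given as Pearson's r of log2(normalised CPM + 0.5), a description in which the days carry most of the variation. Ldb3 and Smpx were the most alike pair (0.985), followed by Myoz2 with Smpx (0.983) and Actn2 with Myoz2 (0.979). Xirp2 was most like Pdlim3 (0.96) and least like Actn2 (0.618). Among 7751 other genes with a mean of at least 20 CPM, those closest to the mean profile of the members were Acsl6, a fatty acyl-CoA ligase (0.999), and Mef2d, a MEF2 transcription factor (0.997). Daam2, Atg16l1, Ankrd10, Npnt, Ucp2 and Jph1 followed, with r between 0.991 and 0.995.

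Most other genes of the Z-disc rose with differentiation. Of 20 other genes of the Z-disc and its attachments, 18 were tested. By day 3, 14 rose, where 26.4% of all genes tested were called higher, and 1 fell. The median log2 fold change of the 18 was 1.53. Those with the highest levels were the intermediate filament gene Des, the filamin Flnc and the chaperone Cryab, which rose by 1.60, 1.48 and 1.59. The largest rises were in Ankrd2 (5.62), Csrp3 (4.92) and the titin cap Tcap (4.24). Mypn, Palld, Synpo2, Synpo2l, Pdlim4, Pdlim7, Bag3 and Nrap also rose, and Pdlim1 fell by 0.39. By day 5, 7 of 18 rose further (Tcap by 2.83, and Csrp3, Mypn, Palld, Des, Synpo2 and Nrap by less), and Pdlim4 fell by 0.37. Over all genes tested, 3.77% were called higher in this step. In the Fkbp5 knockdown 17 of 18 had a fitted value under 0, and the median was -0.21. None of the 18 was called, where 1.4% of all genes tested were called lower. Mypn, a partner of α-actinin, had the lowest (-1.18, adjusted p = 0.102). Bag3, a co-chaperone in the removal of damaged Z-disc proteins, was lower by 0.63 in the Fkbp4 knockdown (adjusted p = 0.0194 in edgeR). Calls of genes outside the 10 members were not checked gene by gene in the alternatives. Without the control of day 3, 4 genes in all were called for the Fkbp4 knockdown, against 140 with every library. Between the knockdowns, Synpo2l was lower with Fkbp5 knocked down (-0.65) and Bag3 was higher (0.56). Whether the 10 members differ from these 18 was not tested.

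Neither non-muscle α-actinin was called higher on any day. Actn1 fell by 0.73 on the log2 scale by day 3 (adjusted p = 0.000398), from 420 to 257 CPM in the control, and Actn4 was not called in any comparison. Myom1, Myom2, Myom3 and Obsl1, which encode proteins of the M-band, the crosslink at the middle of the sarcomere, rose by day 3, by 5.18, 4.92, 4.58 and 2.06 on the log2 scale. Each rose again by day 5, by 1.57, 1.13, 1.52 and 1.08. Over all genes tested, 26.4% were called higher by day 3 and 3.77% from day 3 to day 5. Myom2 went from 11.5 to 449 and 1058 CPM in the control and to 679 CPM at day 5 in the Fkbp5 knockdown. None of these 4 was called in the Fkbp5 knockdown against the control, where 1.4% of all genes tested were called lower. Their fitted values there were -0.49 (Myom1), -0.43 (Myom2), -0.59 (Myom3) and -0.57 (Obsl1). Myom2, Myom3 and Obsl1 were lower in the Fkbp5 than in the Fkbp4 knockdown, where 6.02% of all genes tested were called lower.

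Of calcineurin and its partners, 9 of 10 genes were tested. Ppp3ca, Rcan1, Rcan2 and Nfatc3 rose by day 3, where 26.4% of all genes tested were called higher. Rcan2, an inhibitor of calcineurin, was higher in the Fkbp5 knockdown by 0.88 (SE 0.15, adjusted p = 0.0213). Its CPM was 18.6, 76.1 and 112 CPM at days 0, 3 and 5 against 15.0, 43.5 and 46.4 in the control. Nfatc3, a transcription factor that calcineurin activates, was lower in the Fkbp4 knockdown by 0.72 (adjusted p = 0.0369). Both were higher with Fkbp5 knocked down than with Fkbp4 knocked down (0.90 and 0.81). The catalytic and regulatory subunits Ppp3cb, Ppp3r1 and Ppp3ca had the highest levels of the list, and none of them was called in either knockdown against the control. Of the myogenic regulators, Myod1, Myf5, Myog, Mef2a, Mef2c and Mef2d rose by day 3, 6 of 7 tested, beside the same 26.4% of all genes. Mef2c rose again by day 5 (1.24), where 3.77% of all genes tested were called higher. Mef2d was lower in the Fkbp5 knockdown by 0.40 (SE 0.09, adjusted p = 0.0467). Its CPM ran through 61.7, 193 and 199.5 there, and through 86.5, 239.8 and 267 in the control. Mef2a, Mef2d and Srf were lower with Fkbp5 knocked down than with Fkbp4 knocked down (-0.50, -0.52 and -0.42).

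On GRCm38 the α-actinin genes lie apart, Actn2 on chromosome 13 from 12269426 to 12340760 and Actn3 on chromosome 19 from 4861216 to 4877909. Myoz2 and Pdlim5 share chromosome 3, from 123006206 to 123035015 and from 142239590 to 142395696, and Myoz1 and Ldb3 share chromosome 14, from 20649107 to 20656540 and from 34526603 to 34588682. Smpx lies on the X chromosome, from 157698910 to 157752591, Pdlim3 on chromosome 8, from 45885461 to 45919548, Xirp1 on chromosome 9, from 120013755 to 120023598, and Xirp2 on chromosome 2, from 67446002 to 67526614. At most 1.62% of the 31-base words of a member's transcripts occur in another gene, the highest share being that of Actn2. An antisense gene, Gm13601, overlaps exons of Xirp2 and had 0 reads in every library.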

How the data were processed

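PolyA RNA of 9 C2C12 cultures was sequenced. The deposited values are unnormalised read counts for each Ensembl gene; per the submitters' processing notes, CASAVA 1.8, HISAT2 2.0.2, Subread and featureCounts 1.4.6 were used with mm10. The annotation release, the strand setting and the rule for multimapping reads are not given in the sources used here. Symbols, positions and exon lengths came from GENCODE mouse release 21 (GRCm38), which matched 47309 of 47728 identifiers; the 419 others held at most 0.0188% of a library's reads.

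Counts were tested with the quasi-likelihood test of edgeR 4.0.16 after filterByExpr and TMM scaling (factors 0.942 to 1.037), with genotype and day as additive terms (4 residual degrees of freedom). The interaction of each knockdown with days 3 and 5 was tested on 13372 genes. P-values were adjusted by Benjamini-Hochberg over all genes tested, with 0.05 as the threshold. The pipeline was tested on simulated data with known changes. Normalised CPM is the read count as CPM of the TMM-scaled library size. Ratios of 2 libraries and shares of a gene pair have exact Clopper-Pearson 95% intervals, for counting error only. Alternatives were DESeq2 1.42.0, limma voom (limma 3.58.1), other scalings and filters, and fits without each library or day.

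All 10 members are named in each comparison of days or genotypes and counted in the interactions; from the other lists the genes called, or the 3 with the highest mean CPM, and from the profile comparison the 8 most alike. Members and lists were chosen with earlier results of these data known. Cardiac muscle markers summed to between 6.41 and 28.2 CPM, and skeletal muscle markers to between 1070 and 10700 CPM. Of the other lists, 1 gene is not reported here.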

Additional observations from a re-analysis of the deposited data

How the results depend on the processing

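The limits are those of 9 libraries: no genotype and day was repeated, and Myoz1 at no more than 13 reads allows no firm statement. The additive model sets genotypes against each other within days, so the genotype comparisons were paired by day, without replicates inside a day. Adjusted p-values that DESeq2 left undefined (Myoz1 in the 3 genotype comparisons) count as no call.

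The number of members called from day 3 to day 5, 3 in edgeR, was 0 in limma voom and 6 without the filter on low counts, and lay between 3 and 6 when each library was left out in turn. For day 3 against day 0 it lay between 9 and 10. For the Fkbp5 knockdown against the control, 4 became 7 without the filter on low counts, 2 without day 3 and 2 without day 5, and lay between 2 and 6 when each library was left out. For the Fkbp4 knockdown, 0 became 1 in DESeq2, without the filter on low counts and in the 6 libraries of the 2 genotypes, and stayed at 0 without any 1 library. Between the knockdowns, 6 became 3 without day 5 and lay between 3 and 7 when each library was left out. The Fkbp5 interaction went from 0 to 3 members without the filter on low counts.

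Direction turned only for members not called. With each library left out in turn, Xirp1 from day 3 to day 5 ran from -0.034 to 0.3929, and Xirp2 in the Fkbp5 knockdown from -0.5939 to 0.1406. In the Fkbp4 knockdown Pdlim5 ran from -0.0649 to 0.0401, Smpx from -0.1374 to 0.0316, Xirp1 from -0.1036 to 0.3026 and Xirp2 from -0.0536 to 0.4105. The opposite sign came without the control of day 3 for Xirp1 between days 3 and 5 and for Smpx, Xirp1 and Xirp2 in the Fkbp4 knockdown, without the Fkbp5 knockdown of day 0 for Xirp2 in that knockdown, and without the Fkbp4 knockdown of day 5 for Pdlim5. Without day 0, Xirp1 and Xirp2 in the Fkbp5 knockdown were 0.0185 and 0.1731. Without day 3, Smpx and Xirp1 in the Fkbp4 knockdown were 0.0351 and -0.0051. The Fkbp4 interaction of Pdlim5 was -0.0373 with library totals only and -0.0072 without the filter. The cause was not tested.

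Over all genes, calls ran from 36 (without day 5) to 866 (no filter) for the Fkbp5 knockdown, with 268 in edgeR as described. They ran from 4 to 690 for the Fkbp4 knockdown (140), from 250 to 2385 between the knockdowns (1650) and from 232 to 1578 for day 5 against day 3 (791). For the interactions they ran from 0 to 107 (Fkbp5, 5) and from 1 to 95 (Fkbp4, 5). With library totals only, 4 genes were called for the Fkbp4 interaction, 75% of them higher, beside 60% of 5.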
